A study of Homo sapiens with 6 samples.

Results

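CALCR, ADGRG1 and GPR137C encode 3 receptor-type proteins that cross the membrane several times. They were the 3 members studied here of 14884 genes named on the array, and each is read by 1 probe set. They were listed by name because of how they stood in earlier results of these arrays. ADGRG1 and GPR137C were chosen by their log2 signals in sip53 and siNC cells, and CALCR by its log2 signals under both siRNAs and siNC. Every comparison of the 3 receptors between groups shares arrays with that choice, so their differences are given as descriptions, with no test. The arrays measured RNA from MDA-MB-231, a human breast cancer line of mesenchymal type. The cells were transfected, with a lipid reagent, with siATM (against ATM, 2 arrays), sip53 (against p53, 2 arrays) or the control siRNA siNC (2 arrays). All 3 groups thus carry an siRNA and the reagent. The siRNA sequences, their dose and the time of harvest are not in the labels used here, and how far ATM and p53 themselves were lowered was not analysed here. Nothing in the labels tells whether arrays of the same group are separate cultures. The p-values therefore rest on a spread between arrays that may be technical.

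The calcitonin receptor, CALCR, is a class B G protein-coupled receptor for the peptide hormone calcitonin. It signals mainly through Gs and cyclic AMP, is known for slowing bone resorption by osteoclasts, and forms amylin receptors when it pairs with the RAMP proteins. ADGRG1, also called GPR56, is an adhesion G protein-coupled receptor that cuts itself into an extracellular and a membrane-spanning part and binds collagen III and transglutaminase 2. GPR137C belongs to a small family with GPR137 and GPR137B, membrane proteins of the lysosome, of which GPR137B is known to act on the Rag GTPases that bring mTORC1 to lysosomes. The role of GPR137C itself is less well known.

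The label of the cells was checked against markers. VIM, CD44, AXL, MSN and ANXA1, the 5 of 7 mesenchymal-type markers named on the array, had mean log2 signals of 10.83 to 12.84. Of the 5 only ANXA1 was called, higher by 0.20 with siATM (adjusted p = 0.0345, lost without any single array, up to 0.144); with sip53 0 were called (0 also at an unadjusted p below 0.05 in limma). Of 5 luminal markers named, ESR1, PGR and FOXA1 were dimmer than 5.96, which is the median probe set and the lower limit for testing. GATA3 stood at 8.40 and rose with both siRNAs, by 0.31 (adjusted p = 0.0273) with siATM and 0.65 (0.00417) with sip53. Its call with siATM was lost without siATM replicate 1, siNC replicate 1 or siNC replicate 2 (up to 0.120). ERBB3, the other luminal marker tested (mean 6.52), differed by −0.17 with siATM (adjusted p = 0.0811) and by 0.18 with sip53 (0.120). The median log2 signal of an array lay between 5.95 and 5.98. Genes were tested with limma in 1 fit over the 6 arrays, and a change was called at an adjusted p (Benjamini-Hochberg over 10640 genes tested) below 0.05. By that rule 25.5% of tested genes changed between siATM and siNC, 12.5% higher and 13.0% lower. Between sip53 and siNC 10.6% changed, 5.47% higher and 5.11% lower. That split was 582 higher and 544 lower genes, and 410 and 668 with each array centred on its median over tested genes. Between siATM and sip53 30.3% changed. Arrays of the groups did not overlap for 62.7% of tested genes in siATM against siNC, 58.9% in sip53 against siNC and 65.4% in siATM against sip53. All values below are log2 signals, or differences of mean log2 signal with their standard error (SE).

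CALCR had about the same level under both targeting siRNAs, and a level about 3-fold lower in control cells. Its log2 signal was 8.14 and 8.07 on the siATM arrays and 8.15 and 8.19 on the sip53 arrays, against 6.51 and 6.45 on the siNC arrays. The 4 arrays of the targeting siRNAs lay together, at least 1.56 above the higher siNC array. The difference from siNC was 1.63 with siATM (3.09-fold) and 1.69 with sip53 (3.24-fold). Both comparisons use the same siNC arrays. The order of the levels was sip53, siATM, siNC. siATM minus sip53 was −0.07, about the difference between the siATM replicates, and the nearest siATM and sip53 arrays were 0.013 apart. Replicate arrays of CALCR differed by 0.07 with siATM, 0.04 with sip53 and 0.06 with siNC, near the median over tested genes in each group (0.086, 0.063 and 0.065).

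**Figure D1:**
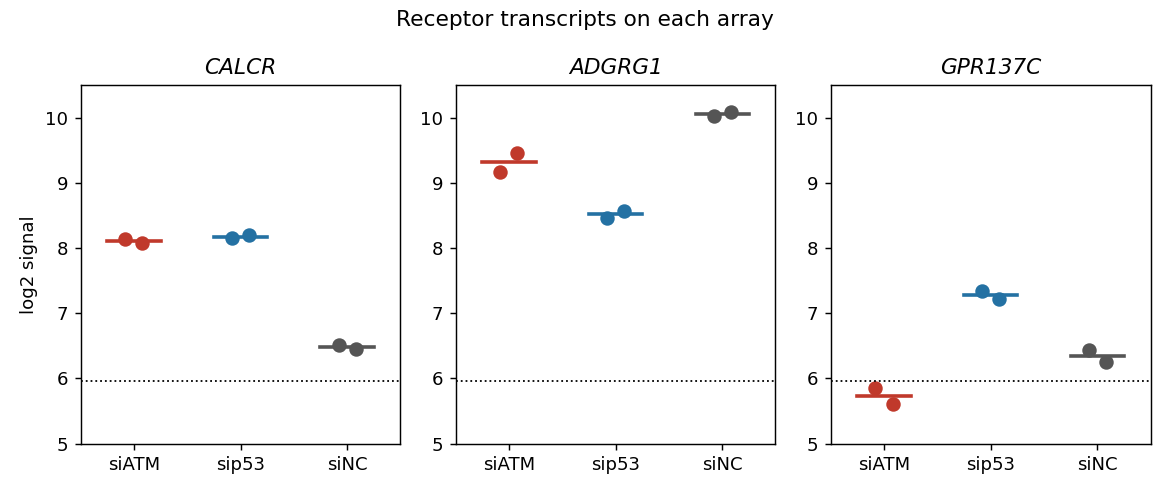
Log2 signal of CALCR, ADGRG1 and GPR137C on each of the 6 arrays. Points are arrays, horizontal bars are group means of 2 arrays, and the dotted line at 5.96 is the limit for testing, which applies to the 6-array mean. CALCR sits near 8.1 with either targeting siRNA and near 6.5 with siNC, ADGRG1 is lowest with sip53, and GPR137C lies below siNC with siATM and above it with sip53.

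The array does not say which transcript start gives the CALCR signal. RefSeq (GRCh38.p14) lists the sequence before 2 CALCR starts on the minus strand of chromosome 7, and they are shown because their base composition differs widely. The 250 bases before the outer start, chr7:93574725-93574974, are 70.8% G or C with 20 CpG, more GC-rich than 81.1% of 35116 promoters of that length. Those before the inner start, chr7:93559811-93560060, are 34.0% G or C with 0 CpG. Capitals mark GGGCGG (SP1) and CCAAT, searched on both strands.
CALCR outer start: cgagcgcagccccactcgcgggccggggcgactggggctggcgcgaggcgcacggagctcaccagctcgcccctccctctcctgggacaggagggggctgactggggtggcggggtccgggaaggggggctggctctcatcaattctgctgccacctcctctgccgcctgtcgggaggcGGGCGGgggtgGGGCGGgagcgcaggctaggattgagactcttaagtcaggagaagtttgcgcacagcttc
CALCR inner start: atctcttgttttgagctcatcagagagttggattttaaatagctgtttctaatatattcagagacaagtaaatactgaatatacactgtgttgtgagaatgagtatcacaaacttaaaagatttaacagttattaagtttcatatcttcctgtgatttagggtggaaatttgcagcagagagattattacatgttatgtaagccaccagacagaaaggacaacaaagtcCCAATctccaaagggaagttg
GGGCGG occurs 2 times before the outer start and CCAAT 1 time before the inner start; 42.6% and 32.0% of all promoters hold these letters. The cyclic AMP response element TGACGTCA, held by 1.65% of promoters, the AP-1 motif TGANTCA (6.57%) and the p53 half-site (5.57%) were not in either window.

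CALCR carries 2 microRNA genes within its borders, MIR489 and MIR653, transcribed from the same strand, so their signals were read beside that of their host. Their mature forms in RefSeq (GRCh38.p14, chromosome 7) are given with the seed, bases 2 to 8, in capitals, and no 2 of them share a seed.
hsa-miR-489-3p: gUGACAUCacauauacggcagc
hsa-miR-653-3p: uUCACUGGaguuuguuucaaua
hsa-miR-653-5p: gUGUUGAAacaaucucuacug
The MIR489 probe set read 4.99 and 5.13 with siATM and 4.84 and 4.69 with sip53, against 4.76 and 4.72 with siNC. The MIR653 probe set read 2.64 and 2.82 with siATM and 2.50 and 2.33 with sip53, against 2.35 and 2.58 with siNC. Both lay below the limit for testing. With no limit applied, siATM minus siNC was 0.32 for MIR489 (limma adjusted p = 0.0575) and 0.26 for MIR653 (0.189), and sip53 minus siNC was 0.03 (0.893) and −0.05 (0.860). The host's difference of 1.69 with sip53 had no counterpart of that size at either microRNA probe set.

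Among the other genes of the calcitonin family, 1 change was called against siNC. The array named 10 of 11 listed peptides, receptors and accessory proteins, and 5 were bright enough to test. With siATM 0 of 5 changed (0 also at an unadjusted p below 0.05; median 0.02, against −0.001 over all tested genes). With sip53, ADM rose and 0 of 5 fell (median −0.02, against 0.015). Called shares over all tested genes were 25.5% with siATM and 10.6% with sip53. ADM, the vasodilator peptide adrenomedullin, acts on the related receptor CALCRL. It had 8.69 and 8.77 on the sip53 arrays, against 7.998 and 7.94 on the siNC arrays, a difference of 0.76 (SE 0.06, adjusted p = 0.00140). With siATM it had 7.85 and 7.83, a difference of −0.13 (adjusted p = 0.164), and siATM minus sip53 was −0.89 (adjusted p = 2.53e-04). RAMP1, the accessory protein that turns CALCR into an amylin receptor, was the brightest of the family at a mean of 9.11, with differences of 0.15 (siATM) and −0.03 (sip53) that were not called. CALCRL (mean 4.19), RAMP2 (5.65) and the genes of the peptides calcitonin, CALCA (4.61), and amylin, IAPP (3.92), lay below the limit for testing.

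Of 9 tested receptors of class B1 other than CALCR, GIPR rose and VIPR1 fell with siATM, and 0 changed with sip53 (2 at an unadjusted p below 0.05). Over all tested genes 25.5% were called with siATM and 10.6% with sip53. GIPR, the receptor of the incretin GIP, differed from siNC by 0.49 (SE 0.06, adjusted p = 0.00180) with siATM. VIPR1, a receptor of vasoactive intestinal peptide, differed by −0.45 (SE 0.10, adjusted p = 0.0173), and lost its call without siATM replicate 1 or siNC replicate 2 (adjusted p up to 0.0962). In the cyclic AMP pathway that CALCR feeds, 3 of 14 tested genes rose and 1 fell with siATM, and 1 rose and 3 fell with sip53. With no filter on dim genes, ADCY9 lost its siATM call, and ADCY1, ADCY3 and PDE8B lost their sip53 calls. PDE7B, a cyclic AMP phosphodiesterase, rose under both, by 0.46 (SE 0.05, adjusted p = 0.00161) with siATM and by 0.58 (SE 0.05, adjusted p = 0.00213) with sip53. The adenylyl cyclase gene ADCY3 fell by 0.46 with siATM (adjusted p = 0.00228) and by 0.25 with sip53 (0.0429, and up to 0.210 when a siNC or sip53 array was omitted).

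Among genes known as targets of the cyclic AMP response factor CREB, 3 of 11 tested rose and 0 fell with siATM (median 0.08), and 2 rose and 1 fell with sip53 (median −0.003). The share called with siATM, 3 of 11, was near the 25.5% over all tested genes. With sip53 3 of 11 were called, against 10.6%. The sip53 calls of JUNB, BDNF and IRS2 were all lost with no filter on dim genes. The siATM calls of SCG2, DUSP1 and JUNB stayed in that setting. The median over all tested genes was −0.001 with siATM and 0.015 with sip53. SCG2, a secretory granule protein, had 8.27 and 7.77 with siATM and 6.98 and 6.94 with sip53, against 7.27 and 7.29 with siNC. Its rise with siATM was 0.74 (SE 0.14, adjusted p = 0.00970, and 0.0511 without siNC replicate 1). DUSP1, a phosphatase of MAP kinases, rose by 0.62 with siATM (adjusted p = 0.00140). The AP-1 subunit gene JUNB rose by 0.45 with siATM (adjusted p = 0.00177) and fell by 0.28 with sip53 (adjusted p = 0.0215, and up to 0.129 without any 1 array of those groups). SCG2, DUSP1 and JUNB each had higher signals with siATM than with sip53, by 1.06, 0.85 and 0.73 (adjusted p = 0.00184, 3.85e-04 and 3.13e-04).

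Neighbours of CALCR on chromosome 7 were read beside it. VPS50, the nearest gene on one side and a subunit of an endosome tethering complex, rose by 0.30 (SE 0.07, adjusted p = 0.0161) with siATM and differed by 0.24 (adjusted p = 0.0631) with sip53. Its call was lost without siATM replicate 1 or siNC replicate 2. SAMD9L, an interferon-inducible growth regulator, fell by 0.69 with siATM (SE 0.06, adjusted p = 6.28e-04) and differed by 0.21 with sip53 (adjusted p = 0.0707). Its paralog SAMD9 fell by 0.38 with siATM (adjusted p = 0.0153, up to 0.0884 without siATM replicate 2 or siNC replicate 2) and differed by 0.18 with sip53 (0.226). TFPI2, an inhibitor of serine proteases, rose by 0.44 with sip53 (SE 0.06, adjusted p = 0.00487). Its rise of 0.19 with siATM (adjusted p = 0.0457) was lost whichever array was left out (up to 0.180). The differences of these 4 neighbours lay between −0.69 and 0.44, against 1.63 and 1.69 for CALCR. CALCR was chosen by its signals in these groups, so its larger differences are no result about the region.

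ADGRG1 was brightest in control cells, lower with siATM and lowest with sip53. Its log2 signal was 9.17 and 9.45 on the siATM arrays and 8.47 and 8.56 on the sip53 arrays, against 10.02 and 10.09 on the siNC arrays. The 3 groups did not overlap, with gaps between the nearest arrays of 0.57 from siATM to siNC and 0.61 from sip53 to siATM. The difference from siNC was −1.54 with sip53, or 2.91-fold lower. With siATM it was −0.75, or 1.68-fold lower. Both comparisons use the siNC arrays by which ADGRG1 was chosen. siATM minus sip53 was 0.80, or 1.74-fold. The siATM arrays of ADGRG1 differed from each other by 0.28, against a median of 0.086 over tested genes, and its sip53 and siNC arrays by 0.10 and 0.07.

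RefSeq (GRCh38.p14) lists sequence before several ADGRG1 starts on the plus strand of chromosome 16. Windows of 250 bases before 2 of them are shown because they hold letters of the motifs searched: chr16:57619796-57620045 holds a p53 half-site and chr16:57628380-57628629 holds TGANTCA, the AP-1 motif, 2 times. Capitals mark these letters.
ADGRG1 upstream start: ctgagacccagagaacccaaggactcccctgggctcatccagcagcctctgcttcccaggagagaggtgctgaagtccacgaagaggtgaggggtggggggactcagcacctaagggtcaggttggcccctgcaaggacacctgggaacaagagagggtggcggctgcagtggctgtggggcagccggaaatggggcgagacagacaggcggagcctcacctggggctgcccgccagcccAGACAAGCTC
ADGRG1 downstream start: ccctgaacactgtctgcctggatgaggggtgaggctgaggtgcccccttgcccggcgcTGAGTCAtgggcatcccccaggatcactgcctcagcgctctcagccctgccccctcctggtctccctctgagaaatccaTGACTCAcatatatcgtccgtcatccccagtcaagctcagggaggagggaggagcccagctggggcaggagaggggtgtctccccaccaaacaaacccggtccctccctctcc
The p53 half-site was found in 5.57% and TGANTCA in 6.57% of all 35116 promoter windows of 250 bases, on either strand. The windows are 65.2% and 63.6% G or C with 6 CpG each, against medians of 58.0% and 11 over all promoters. A match to these letters is not evidence of binding. The windows shown were picked for their matches. The remaining ADGRG1 window, chr16:57619488-57619737, held none of the motifs searched. Those were the letters of AP-1, the cyclic AMP response element, NF-kB, E-box, SP1, CCAAT, TATA and the p53 half-site.

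Among the other adhesion receptors, ADGRG6 and ADGRL2 were called under both siRNAs. Of 31 listed, 19 were named and 13 tested, and 2 rose and 2 fell with siATM (median −0.048) and 1 rose and 1 fell with sip53 (median −0.025). Over all tested genes 25.5% were called with siATM and 10.6% with sip53, so these counts of 4 and 2 of 13 do not set the family apart. ADGRG6, which in mice is needed for myelination by Schwann cells, was lower under both siRNAs as ADGRG1 was. It had 9.71 and 9.67 with siATM and 9.50 and 9.56 with sip53, against 10.12 and 10.14 with siNC, and fell by 0.44 (SE 0.06, adjusted p = 0.00212) and by 0.60 (SE 0.06, adjusted p = 0.00213). ADGRL2, a latrophilin, moved the other way. It had 8.57 and 8.53 with siATM and 8.75 and 8.76 with sip53, against 8.05 and 7.98 with siNC, a rise of 0.53 (SE 0.06, adjusted p = 0.00113) and of 0.74 (SE 0.06, adjusted p = 0.00140). ADGRF1 fell by 0.50 with siATM (adjusted p = 0.00389) and differed by 0.10 with sip53 (adjusted p = 0.439), with siATM minus sip53 at −0.60 (adjusted p = 0.00140). ADGRL1 rose by 0.30 with siATM, a call (adjusted p = 0.0356) lost without siNC replicate 1, siATM replicate 2 or either sip53 array (up to 0.179) and under 5 other settings. ADGRE5, or CD97, the brightest of the family with a mean of 12.09, had differences of −0.16 and −0.06 that were not called. ADGRG3, the next gene beside ADGRG1 on chromosome 16 and its family member, had differences of −0.01 with siATM and 0.03 with sip53, neither called (adjusted p = 0.887 and 0.763).

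**Figure D2:**
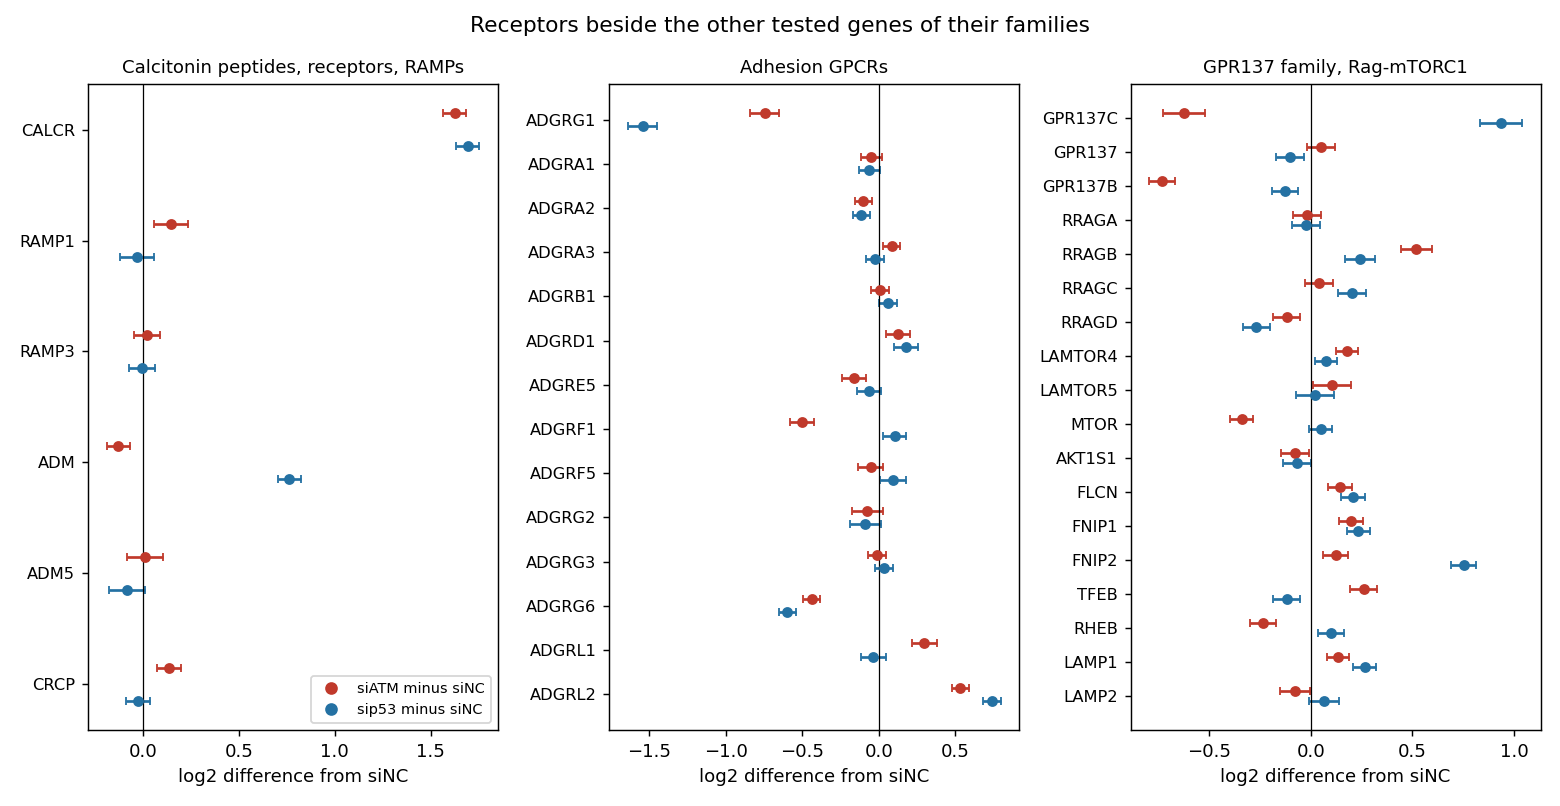
Difference of mean log2 signal from siNC for each receptor and for the other tested genes of its family or pathway, with siATM above sip53 in each row. Bars are the SE of the limma fit. CALCR stands apart from the RAMP genes, ADGRG6 lies on the side of ADGRG1 and ADGRL2 on the other, and GPR137B is lower with siATM, as GPR137C is. With sip53 FNIP2 is the highest gene beside GPR137C in its panel. The receptors were chosen by their signals on these arrays, so their distance from the other genes is no result.

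GPR137C was lower than in control cells with siATM and higher with sip53. Its log2 signal was 5.85 and 5.60 on the siATM arrays and 7.35 and 7.22 on the sip53 arrays, against 6.44 and 6.25 on the siNC arrays. The groups did not overlap, with nearest arrays 0.41 apart between siATM and siNC and 0.78 apart between sip53 and siNC. Arrays of these pairs did not overlap for 62.7% and 58.9% of all tested genes. The difference from siNC was 0.93 with sip53, or 1.91-fold. With siATM it was −0.62, or 1.54-fold lower, against the siNC arrays that also entered the choice of the gene. siATM minus sip53 was −1.56, or 2.94-fold lower, the third lowest value in that comparison. GPR137C was the dimmest of the 3, with a mean of 6.45 that exceeded 58.8% of all probe sets, and its siATM mean of 5.73 lay under the limit of 5.96 that applies to the mean of all arrays. Its replicate arrays differed by 0.245 with siATM, 0.13 with sip53 and 0.19 with siNC, above the medians of 0.086, 0.063 and 0.065 over tested genes.

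Of the other family members, GPR137B fell with siATM and GPR137 was not called. GPR137B had 8.15 and 8.05 with siATM and 8.68 and 8.73 with sip53, against 8.81 and 8.85 with siNC. It fell by 0.73 with siATM (SE 0.06, adjusted p = 6.03e-04) and differed by −0.13 with sip53 (adjusted p = 0.253). GPR137 differed by 0.05 and −0.10 (adjusted p = 0.635 and 0.408). In the list of this family and the Rag-mTORC1 machinery of the lysosome, 17 of 24 genes were tested, of which 3 rose and 3 fell with siATM and 3 rose and 1 fell with sip53. The medians were 0.05 and 0.07, against −0.001 and 0.015 over all tested genes, of which 25.5% and 10.6% were called. With no filter on dim genes, FNIP1, RHEB and TFEB lost their siATM calls. FNIP1, LAMP1 and RRAGD lost their sip53 calls in that setting. RRAGB, a Rag GTPase, rose by 0.52 with siATM (SE 0.07, adjusted p = 0.00305), and MTOR, the kinase itself, fell by 0.34 (SE 0.06, adjusted p = 0.00560). FNIP2, which with folliculin acts on the Rag GTPases, rose by 0.75 with sip53 (SE 0.06, adjusted p = 0.00155) and differed by 0.12 with siATM (adjusted p = 0.197).

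The gene next to GPR137C on chromosome 14, TXNDC16, rose with sip53 as well. TXNDC16 encodes a thioredoxin-domain protein of the endoplasmic reticulum. It had 6.53 and 6.43 with siATM and 7.40 and 7.50 with sip53, against 6.45 and 6.70 with siNC. Its rise with sip53 was 0.88 (SE 0.09, adjusted p = 0.00262), or 1.84-fold. With siATM it differed by −0.10 (SE 0.09, adjusted p = 0.491, 95% interval −0.31 to 0.12). The 250 bases before the TXNDC16 start, on the minus strand at chr14:52552506-52552755 (RefSeq, GRCh38.p14), lie on the side that faces GPR137C. Capitals mark CCAAT and GGGCGG or their reverse complements, each present 3 times.
TXNDC16 start: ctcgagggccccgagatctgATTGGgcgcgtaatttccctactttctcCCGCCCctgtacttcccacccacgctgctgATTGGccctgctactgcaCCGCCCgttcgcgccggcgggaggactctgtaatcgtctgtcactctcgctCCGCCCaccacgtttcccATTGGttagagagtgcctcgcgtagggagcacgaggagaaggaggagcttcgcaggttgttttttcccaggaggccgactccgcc
The window is 62.0% G or C with 22 CpG, and holds no TATAAA, which 10.7% of promoters hold. On the other side of GPR137C, ERO1A, an oxidase of the endoplasmic reticulum, had differences of −0.01 and 0.02, while STYX, a pseudophosphatase gene 2 genes further on, rose by 0.55 with sip53 (SE 0.06, adjusted p = 0.00296). STYX differed by 0.12 with siATM (adjusted p = 0.201). Over the neighbours of all 3 receptors, 2 of 11 tested rose and 2 fell with siATM, and 3 rose and 0 fell with sip53. Of all tested genes 12.5% rose and 13.0% fell with siATM, and 5.47% rose and 5.11% fell with sip53.

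**Figure D3:**
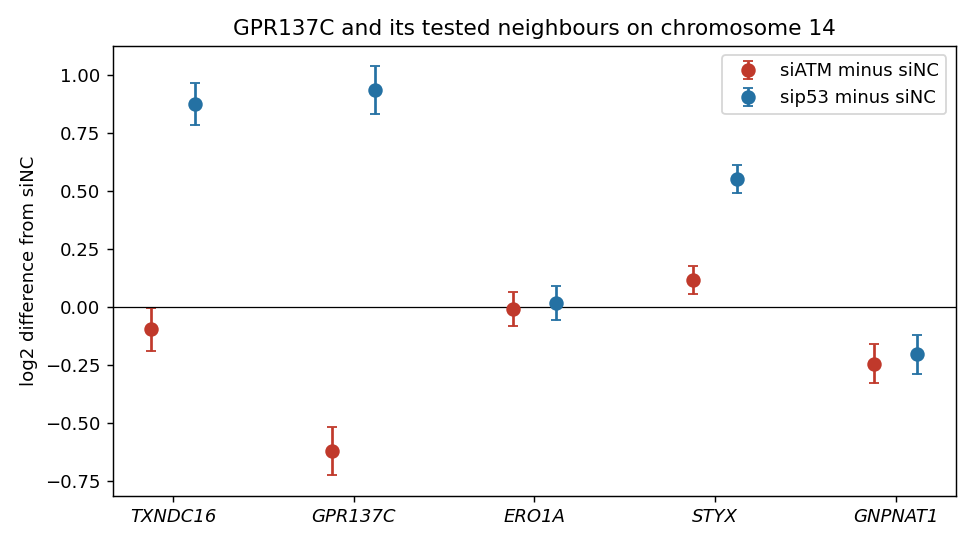
Difference of mean log2 signal from siNC for GPR137C and its tested neighbours, in their order on chromosome 14 (genes not tested are left out). Points are siATM minus siNC and sip53 minus siNC, and bars are the SE of the limma fit. TXNDC16 and STYX are higher with sip53, as GPR137C is, and ERO1A lies near 0 under both.

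The 3 receptors had different patterns over the 6 arrays. Pearson's r was −0.87 between CALCR and ADGRG1, 0.15 between CALCR and GPR137C and −0.62 between ADGRG1 and GPR137C. These describe 6 arrays that share 3 group means and the choice of genes, and carry no p. For each receptor the nearest genes by Pearson's r over the arrays were sought among 674 others whose group means span at least 1.5-fold.

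The genes most like CALCR were IRX3, a homeobox factor, the water channel gene AQP5, FST, which encodes the activin antagonist follistatin, EVI2A and TMEM144 (r from 0.985 to 0.994). FST averaged 9.42 with siATM and 9.37 with sip53, against 8.63 with siNC, and AQP5 averaged 9.18 and 9.27, against 8.42. Like CALCR, these genes stood at a similar level with either siRNA and lower with siNC, but with smaller differences (0.62 to 0.95). CALCR was chosen by its signals in these groups, so its larger differences follow from the choice. Most opposite were UHMK1, a serine/threonine kinase gene, TMEM71 and the chemokine gene CXCL8 (r from −0.986 to −0.993).

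The genes most like ADGRG1 were UNC13B, PDZK1IP1, the secreted glycoprotein gene STC1, IMPA1, an inositol monophosphatase gene, and EOGT (r from 0.976 to 0.988). STC1 averaged 10.62 with siATM and 10.07 with sip53, against 11.03 with siNC, which is the same order of groups as ADGRG1. Most opposite were BTBD8, CEP19 and the imprinted gene MEST (r from −0.991 to −0.994).

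The genes most like GPR137C were CHIC1, MNS1, ENTPD7, the replication factor gene WDHD1 and CCNE2, which encodes cyclin E2 (r from 0.990 to 0.999). CCNE2 averaged 8.30 with siATM and 9.18 with sip53, against 8.69 with siNC, and WDHD1 9.48 and 10.41, against 9.96. Most opposite were VAMP5, BSDC1 and CDC42EP4 (r from −0.994 to −0.997). These neighbours depend on each array: with 1 array left out, 2 to 5 of the 5 genes nearest CALCR stayed among the nearest, 2 to 3 for ADGRG1 and 1 to 4 for GPR137C.

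**Figure D4:**
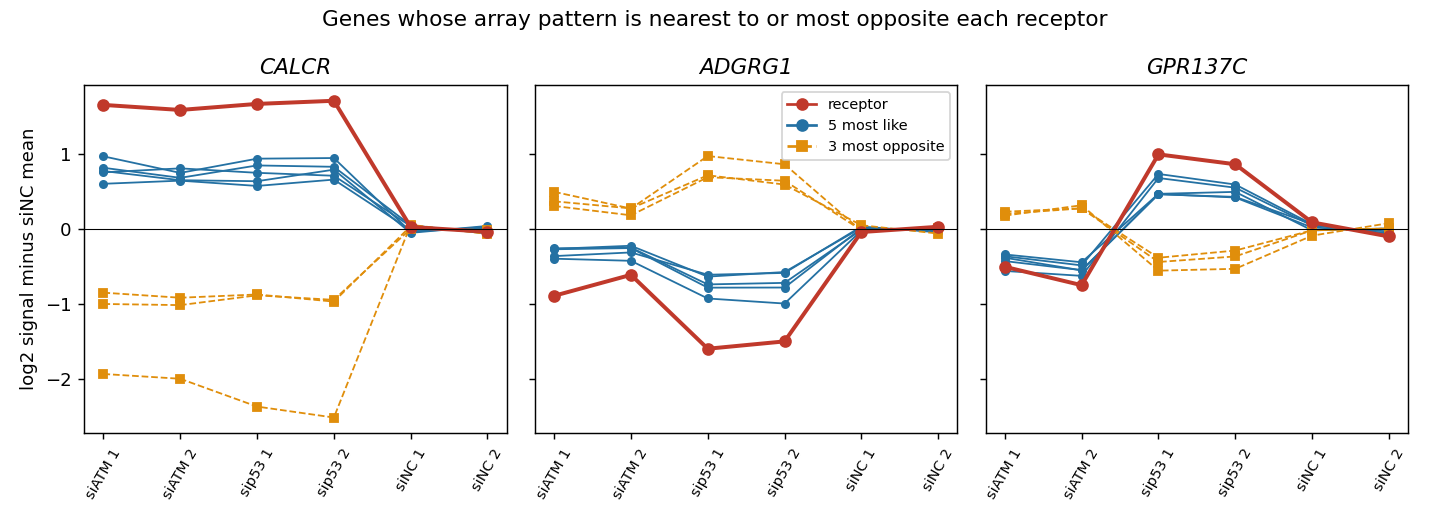
Log2 signal minus the siNC mean on each of the 6 arrays for each receptor (thick line), the 5 genes most like it and the 3 most opposite to it by Pearson's r. Lines join arrays only to guide the eye. CALCR and ADGRG1 lie further from 0 than the 5 genes most like them on all 4 siATM and sip53 arrays, and CXCL8 is the lowest line in the CALCR panel. Both receptors were chosen by their signals on these arrays, so their greater distance from 0 is no result.

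The counts of called genes in the 2 lists that follow stand against 25.5% of all tested genes called with siATM and 10.6% with sip53. Of 69 other receptor genes named GPR with a number, 38 were tested. With siATM 7 rose and 6 fell, with differences between −1.13 and 0.70, and with sip53 1 rose and 3 fell, with differences between −0.37 and 0.50. The GPR137C value of −0.62 with siATM lay inside that range, and its 0.93 with sip53 above it. GPR137C was chosen by its sip53 and siNC signals, so its place above the range is no result. GPR63, an untested gene of the same group with a mean of 5.74, had 5.30 and 5.07 with siATM and 6.39 and 6.46 with sip53, against 5.65 and 5.54 with siNC. Its differences were −0.40 with siATM and 0.83 with sip53, the same signs as those of GPR137C. GPR3, a receptor known to raise cyclic AMP without a ligand, had 7.20 and 7.31 with siATM and 8.37 and 8.35 with sip53, against 8.38 and 8.40 with siNC. It fell by 1.13 with siATM (SE 0.06, adjusted p = 1.38e-04) and differed by −0.02 with sip53 (adjusted p = 0.842). GPR55, a receptor of lysophosphatidylinositol, rose by 0.70 with siATM (SE 0.11, adjusted p = 0.00509; 0.15 and 0.270 with the mean of all its probe sets) and differed by −0.14 with sip53 (adjusted p = 0.480). GPR39, a zinc-sensing receptor, rose under both, by 0.34 and 0.50 (adjusted p = 0.0152 and 0.00777). The call of GPR39 with siATM was lost without siATM replicate 2 or siNC replicate 2, and with sip53 without sip53 replicate 2 or siNC replicate 2. With no filter on dim genes, GPR6, GPR19, GPR35, GPR75, GPR135 and GPR162 lost their siATM calls. GPR17, GPR20 and GPR176 lost their sip53 calls in that setting and without any single siNC or sip53 array. The siATM call of GPR108 was lost without siATM replicate 1 or either siNC array. Among 15 tested GRK kinase and RGS genes, whose products turn such receptors or their G proteins off, 3 rose and 1 fell with siATM, led by RGS9 (0.49, adjusted p = 0.00254), and 1 rose and 1 fell with sip53. Of these calls only that of RGS9 stayed in every setting. With no filter on dim genes, RGS4 and RGS5 lost their siATM calls, and GRK6 and RGS19 their sip53 calls. RGS10 lost its siATM call without siNC replicate 1 or siATM replicate 2.

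**Figure D5:**
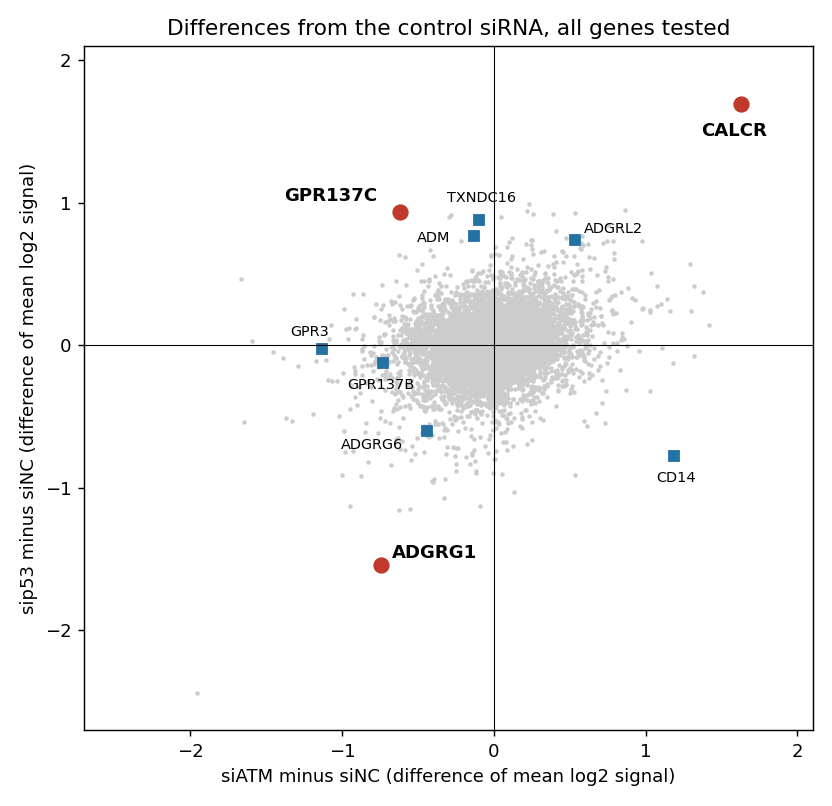
Difference of mean log2 signal from siNC for each of 10640 genes tested, with siATM on the horizontal and sip53 on the vertical axis. Red points are the 3 receptors and blue squares are genes named in the text. Both axes use the same siNC arrays, so a slope in the cloud is no result. CALCR lies in the upper right corner, ADGRG1 in the lower left and GPR137C in the upper left.

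Markers of other cells that use these receptors were read on the same arrays. The 4 osteoclast markers named, CTSK, DCSTAMP, OCSTAMP and CA2, averaged 6.06 to 6.13 with siATM and 5.96 to 6.04 with sip53, against 6.11 to 6.23 with siNC. CTSK was the brightest of the 4, with a mean of 7.23. Of 3 tested, 0 changed with siATM (0 also at an unadjusted p below 0.05) and CTSK alone changed with sip53, falling by 0.48 (adjusted p = 0.0142, up to 0.0851 without either sip53 array or siNC replicate 2), while DCSTAMP, a defining marker, lay below the limit at 5.14. The 6 markers of cytotoxic lymphocytes, cells known for ADGRG1, averaged 6.16 to 6.26 with siATM and 6.21 to 6.25 with sip53, against 6.17 to 6.30 with siNC. Of 3 tested, 0 changed under either siRNA (0 also at an unadjusted p below 0.05). These 3, CD8A (mean 7.65), NKG7 (6.96) and PRF1 (6.08), lay above the limit for testing. GNLY, a defining marker (5.41), FGFBP2 (5.54) and CX3CR1 (5.72) lay below it. Of 3 other blood cell markers tested, CD14 and LYZ rose with siATM and CD14 fell with sip53, and the 3 averaged 9.65 to 9.66 with siATM and 8.67 to 8.78 with sip53, against 9.06 to 9.11 with siNC. Of 2 endothelial and fibroblast markers tested, LUM rose and PECAM1 fell with siATM (PECAM1 lost without siNC replicate 1, adjusted p = 0.0696), and LUM rose with sip53 (lost without either sip53 array or siNC replicate 2, up to 0.0837). The 4 such markers named averaged 5.55 to 5.65 with siATM and 5.69 to 5.72 with sip53, against 5.55 to 5.64 with siNC. The part of these markers in the receptor differences was not tested.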

How the data were processed

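Each sample was hybridised to 1 Affymetrix Human Gene 2.0 ST array, per the labels and design text. The deposited table holds log2 values, a scale read from the values themselves (1.33 to 14.24). The background correction, probe summary and normalization behind it are not given in the sources used here. Of 53617 probe sets, 16098 had 1 gene symbol, 0 had several and 37519 were unnamed in the platform annotation supplied. They name 14884 genes, and where a gene had several probe sets the brightest was used. The 10640 genes with a mean of at least 5.96 were tested with limma (version 3.58.1, R 4.3.3), with group means and eBayes over all 6 arrays. The fit had 3 residual and 7.29 total degrees of freedom, and tests were two-sided. The procedure was tested on simulated data. With 2 arrays a group, the number of arrays limits the precision. Named genes were the receptors, the genes nearest and most opposite each, up to 4 called members of each gene list with the largest change, neighbours in RefSeq (GRCh38.p14) and marker genes. List members outside this rule (RAMP1, CALCRL, RAMP2, CALCA, IAPP, ADGRE5, GPR39, GPR63) were named after their values were seen, and others only for the loss of their calls. The members and lists were chosen with earlier results of these data known, so no p is given for the receptors themselves. Signalling partners of ADGRG1 are not reported here. The file's genome build is not named, so probe sets have no coordinates here. Alternatives were another probe summary, other filters, quantile normalization, centring, a variance trend, fits of 2 groups only, the block, and leaving out each array.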

Additional observations from a re-analysis of the deposited data

Results flagged for a closer look

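Among the tested members of the gene and marker lists, JUNB and CD14 were called against siNC with opposite signs under the 2 siRNAs. The share of all tested genes with this pattern was not counted, so these calls do not set the lists apart. GPR137C also lay on opposite sides of siNC, with no overlap of arrays, and is given with no test. Arrays did not overlap those of siNC for 62.7% of all tested genes with siATM and 58.9% with sip53. Genes picked for likeness or opposition to GPR137C, such as CHIC1 and VAMP5, lie on opposite sides of siNC by their choice and are left out. For GPR137C siATM minus sip53 was −1.56 (5.73 with siATM and 7.28 with sip53, against 6.35 with siNC), which is a description because the gene was chosen on its sip53 value. For JUNB it was 0.73 (limma adjusted p = 3.13e-04), though its fall with sip53 was not called without any 1 of 4 arrays, and for CD14 1.97 (limma adjusted p = 9.77e-05). The opposite signs are measured against the same siNC arrays.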

How the results depend on the processing

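With 1 array left out, siATM minus siNC was 1.59 to 1.66 for CALCR, −0.89 to −0.61 for ADGRG1 and −0.74 to −0.50 for GPR137C, and sip53 minus siNC was 1.66 to 1.73, −1.59 to −1.49 and 0.84 to 1.03. These are values of genes chosen on the same arrays, and are no test. GPR137C fell below the 70th percentile filter, so that setting gives no value for it. The number of changed genes varied more. Against siNC, sip53 changed 1126 genes, 481 with no filter on dim genes but 1742 when eBayes used a trend and robust settings. With 1 array left out the number was 268 to 1252 (290 and 268 without sip53 replicate 1 and 2, 320 and 333 without siNC replicate 1 and 2). For siATM against siNC it was 1444 to 2231, with 2708 in full (1444 and 1506 without siNC replicate 1 and 2). For siATM against sip53 it was 1847 to 2856, with 3219 in full (1847 and 1887 without sip53 replicate 1 and 2). The cause was not tested, beyond there being fewer arrays in those fits. With arrays centred on the median of tested genes, the sip53 calls were 410 higher and 668 lower, against 582 and 544. With the replicate number as a block, 2696, 1001 and 3218 genes changed (siATM and sip53 against siNC, and siATM against sip53), and deviations of same-numbered arrays correlated at 0.036, 0.028 and 0.117, so the numbers were not taken to pair the arrays. Of 80 calls of listed or neighbouring genes, 31 remained when any 1 array was left out and 30 under every alternative that tested them; none reversed. Precision is limited by 2 arrays a group.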
